A study of Sus scrofa with 9 samples.

Results

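In the back muscle of pigs, most of the microRNA (miRNA) arms compared here were less abundant per sequenced read 30 days after birth than at birth. That majority rests in part on arms that met the minimum of copies at birth alone, and it shrank under other scalings, as given below. A few arms ran the other way, and several hairpins gave a different balance of their products at the 2 ages. The comparison set the library of pigs aged 30 days (day 30) against the library of newborn pigs (day 0), with 1 library per age. Both came from longissimus dorsi of female animals of the Jinhua breed, with no treatment named in the labels. The arms were those with at least 100 copies in either library. That left 34 arms, 25 of the 100 conserved ones in the deposited tables and 9 of the 395 putative new ones, counted after identical entries were merged. The study as a whole had 9 libraries, with 1 at gestation day 90 (E90), 1 each at day 0 and day 30, and 3 each at day 180 and 7 years. The pigs of the study outnumber its libraries, and how they were shared out among the libraries was not stated in the labels. No spread between animals is therefore known at day 30 or day 0, and the intervals below are exact 95% intervals that cover counting error only.

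An miRNA is cut from a hairpin precursor as a duplex of a 5p arm and a 3p arm, of which 1 is usually loaded into the Argonaute protein while the other is degraded. The loaded strand finds its target messenger RNAs mainly through its seed, bases 2 to 8. Skeletal muscle of a newborn is still growing by adding nuclei from satellite cells, its resident stem cells, and by enlarging its fibres. Many of the arms described here belong to families encoded in the imprinted DLK1-DIO3 region, whose miRNAs in mammals come from the maternally inherited chromosome, are abundant in the fetus and placenta and are known to be lower after birth in several tissues. The mir-431 precursor lies there antisense to the retrotransposon-like gene RTL1, and most of the others belong to the large miR-379/miR-410 cluster.

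The sequences below are those the results turn on, as the deposited tables list them for these 2 libraries, written 5′ to 3′ as DNA with the seed in capitals. The first 4 come from precursors whose arm balance differed between the ages, and the next 6 are arms that share a seed in pairs. The last 6 are arms whose most abundant sequence was another one at day 30 than at day 0.
miR-377-3p, day 30 and day 0: aTCACACAaaggcaacttttgt
miR-377-5p, day 30 and day 0: aGAGGTTGcccttggtgaattc
miR-411c-3p, day 30 and day 0: tGTATGTCaactgatccacagt
miR-411c-5p, day 30 and day 0: gGTTGATCagagaacatacatt
miR-485-3p, day 30 and day 0: gTCATACAcggctctcctctct
miR-539-3p, day 30: aTCATACAaggacaatttctt
miR-376d-3p, day 30 and day 0: aTCATAGAggaaaatccacat
miR-376b-3p, day 30: aTCATAGAggaaaatccatgtt
miR-26b-5p, day 30 and day 0: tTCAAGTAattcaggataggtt
PN-24885174-5p, day 30 and day 0: tTCAAGTAacccaggataggctt
miR-188-5p, day 30: cATCCCTTgcatggtggaggga
miR-188-5p, day 0: cATCCCTTgcatggtggagggt
miR-5105-5p, day 30: cCCCGGCGccgctcgtgg
miR-5105-5p, day 0: cAAGTCCTtctgatcgaggccc
PN-870046-5p, day 30: cCCGGGGCcgagggagtgagacc
PN-870046-5p, day 0: cCCCCGCGggggcgcttccccgcc

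The day 30 library held 3476614 high-quality reads and the day 0 library 4469677. Copies in both tables made up 1.04% of the reads at day 30 and 1.91% at day 0, so the tables cover a small part of each library and the remaining reads were not analysed here. Levels are given as copies per 1000000 high-quality reads (RPM), where 1 copy is 0.288 RPM at day 30 and 0.224 RPM at day 0. An arm with no entry in a library is treated as at most 3 copies, which is 0.863 RPM at day 30 and 0.671 RPM at day 0. The tissue label could be checked only thinly. Of the muscle miRNAs looked for, miR-1 and miR-208a, from an intron of a cardiac myosin gene, had entries, at 50 copies in all at day 30 and 152 at day 0, a ratio of 0.423 (0.301 to 0.586). The families miR-133, miR-206, miR-378, miR-486 and miR-499 had no arm in the tables. Within the muscle list, miR-1-2-3p had 17 copies at day 30 and 7 at day 0, while miR-208a-3p had 27 at day 30 and 97 at day 0 and miR-1a-2-5p had 6 at day 30 and 40 at day 0. Epithelial markers, from the miR-141, miR-200 and miR-96 families, summed to 50 copies at day 30 and 25 at day 0, a ratio of 2.57 (1.56 to 4.34). The myeloid miR-223-3p had 14 copies at day 30 and 25 at day 0, the neural miR-219-3p was listed at neither age, and the endothelial, liver, chondrocyte and smooth muscle or fibroblast lists had no arm in the tables. The part of a changing cell mix in the ratios below was not tested, and in bulk tissue fewer cells of a type and less RNA per cell cannot be told apart.

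Of the 34 arms, 21 (61.8%) were at least 2-fold lower at day 30, 3 (8.82%) were at least 2-fold higher, and 10 lay between. These shares are the background for every count of a smaller list below. The lower arms include 2 overlapping entries of PN-868884, and the higher ones PN-870046-5p, which stood for another product at each age. With overlapping putative new entries joined, 20 arms were lower and 3 higher. The shares also rest in part on the minimum of 100 copies. Through the day 0 library alone 14 arms reached it, of which 13 were among the lower ones. None reached it through the day 30 library alone. Of the 20 arms that reached it in both libraries, 8 were lower, 9 lay between and 3 were higher, with a median ratio of 0.762. The median ratio of day 30 over day 0 was 0.418, with quartiles of 0.198 and 0.845. The counting interval lay wholly below 1 for 25 arms and wholly above 1 for 7, and it held 1 for the remaining 2, miR-188-5p and miR-5105-5p. Among the conserved arms 15 were lower by the fold, 8 lay between and 2 were higher, with a median ratio of 0.423 and a range of 0.0598 to 4.87. Among the putative new arms 6 were lower, 2 lay between and 1 was higher, with a median of 0.335. All conserved copies together came to 9155 RPM at day 30 and 16747 RPM at day 0, a ratio of 0.547 (0.539 to 0.554), and all putative new copies to 1272 RPM at day 30 and 2399 RPM at day 0, a ratio of 0.530 (0.512 to 0.549).

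These counts depend on what the copies are set against. With the summed copies of both tables as library size, every ratio is 1.84 times larger, and 8 arms were at least 2-fold higher and 11 lower, so that 42.1% of the arms past the fold were higher in place of 12.5%. With the median ratio of the 34 arms set to 1, every ratio is 2.39 times larger, and 9 arms were higher and 10 lower. By construction this scaling puts as many arms above 1 as below it, and summed copies set the ratio of all copies to 1. The balance of higher and lower arms is thus in part built in. The 3 higher arms and 10 of the lower ones kept their place under all 3 scalings. Shares of a precursor's arms and shares of a seed, used below, do not depend on this choice.

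**Figure D1:**
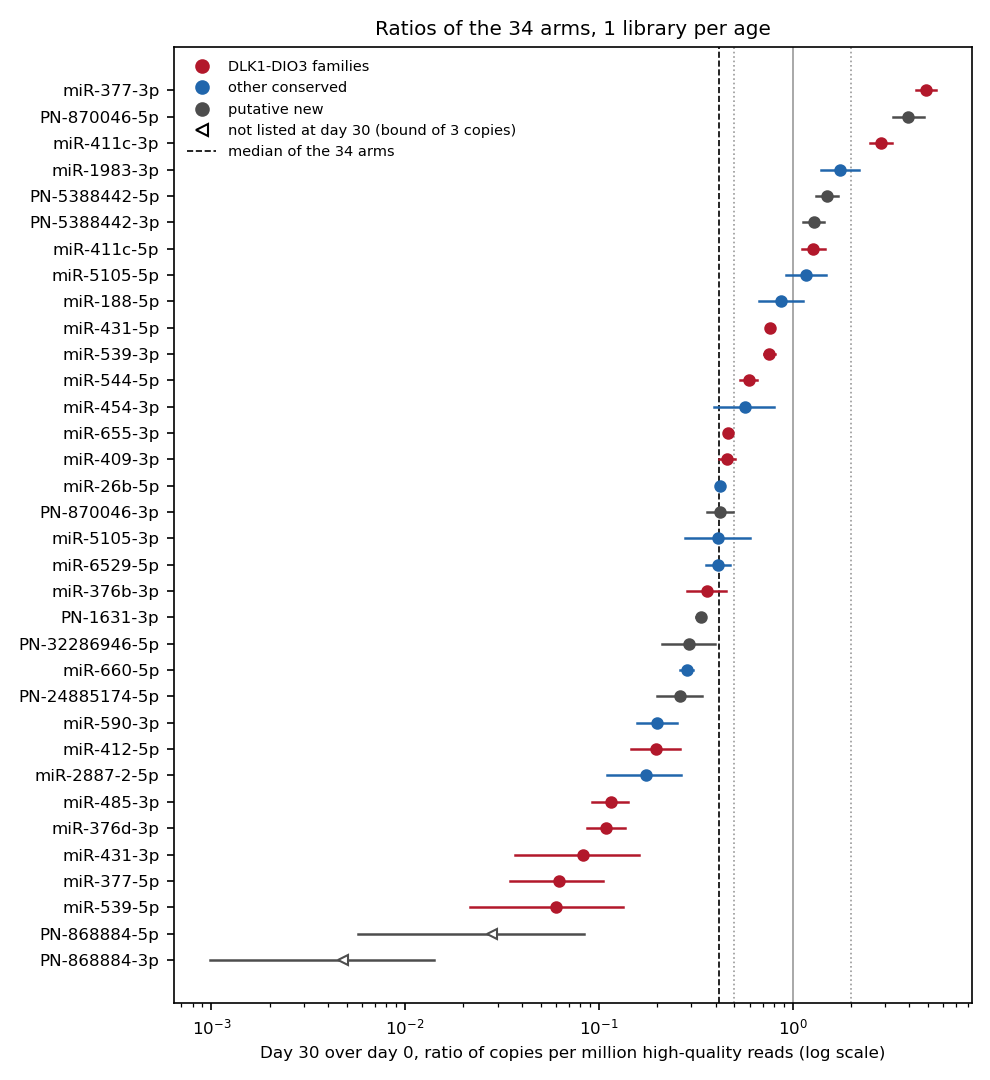
Ratio of day 30 over day 0 for each of the 34 arms, in RPM on a log axis, with exact 95% counting intervals as bars and 1 library per age. Colours separate DLK1-DIO3 families, other conserved arms and putative new arms, dotted lines mark a 2-fold difference either way, and the dashed line marks the median of 0.418. The 3 arms right of the upper dotted line are miR-377-3p, PN-870046-5p and miR-411c-3p.

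The hairpin mir-377 of the DLK1-DIO3 region showed opposite ratios of its arms. Its 3p arm stood at 402 RPM at day 30 and 82.6 RPM at day 0, a ratio of 4.87 (4.34 to 5.47), the highest of the 34. Its 5p arm stood at 4.31 RPM at day 30 and 68.9 RPM at day 0, or 15 and 308 copies, a ratio of 0.0626 (0.0346 to 0.105). The 3p arm supplied 98.9% (98.3 to 99.4) of the copies of both arms at day 30 and 54.5% (50.7 to 58.3) at day 0. The product was thus nearly all 3p at day 30 and near parity at day 0, with the same most abundant sequence for each arm at both ages.

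Another hairpin of the same families, mir-411c, differed in the same direction by a smaller step. The 3p arm was at 223.5 RPM at day 30 and 78.3 RPM at day 0, a ratio of 2.85 (2.51 to 3.25). The 5p arm was at 119 RPM at day 30 and 93.3 RPM at day 0, a ratio of 1.28 (1.11 to 1.47). The 3p share was 65.2% (62.5 to 68.0) at day 30 and 45.6% (42.1 to 49.2) at day 0. The more abundant arm was therefore 3p at day 30 and 5p at day 0, and the sequence of neither arm differed between the ages.

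Of 20 precursors that had both arms in the tables, copies at both ages and arms sharing fewer than 16 bases, the counting intervals of the 3p share lay apart in 7 and overlapped in 13. Both arms had copies at both ages in 15 of them, of which 6 lay apart and 9 overlapped. In mir-485, mir-544, mir-590 and mir-1983 an arm had no entry at 1 age, and in mir-454 the 5p arm had none at either, so that its shares could not differ. Besides mir-377 and mir-411c, the 3p share was higher at day 30 for mir-539 and for the X-linked mir-188. The mir-539 precursor gave 99.6% 3p at day 30 and 94.7% (93.7 to 95.5) at day 0, as its 5p arm stood at 1.73 RPM at day 30 and 28.9 RPM at day 0. The mir-188 precursor gave 34.8% (27.4 to 42.8) 3p at day 30 and 18.7% (13.4 to 25.1) at day 0. Its 3p arm, which with 55 copies at day 30 and 35 at day 0 is not among the 34, had a ratio of 2.02 (1.30 to 3.18), while miR-188-5p stood at 29.6 RPM at day 30 and 34.01 RPM at day 0, a ratio of 0.871 (0.672 to 1.13).

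The 3p share was lower at day 30 for mir-431, mir-485 and PN-870046. For mir-431 both shares were minute, with 9 copies of the 3p arm at day 30 and 140 at day 0 beside 10451 copies of the 5p arm at day 30 and 17572 at day 0. For mir-485 the difference rests on 3 copies of the 5p arm at day 30 and none listed at day 0. Its empty cell was taken as 0 copies in the share, not as up to 3, so that its intervals lying apart is not firm. The putative new precursor PN-870046 had the widest gap, with 30.8% (27.4 to 34.4) 3p at day 30 and 80.6% (77.8 to 83.3) at day 0, but its 5p entry stood for another product at each age, as described below. Of these 7 precursors, the arm with fewer copies at day 0 had the lower ratio in 3 (mir-377, mir-539 and mir-431) and the higher ratio in 4 (mir-411c, mir-188, mir-485 and PN-870046). Libraries of the same age could lie apart by this rule too, since it covers counting error alone. At day 180 the 3p share of PN-870046 was 54.8% (49.7 to 59.8) in 1 library and 72.1% (66.3 to 77.5) in another. Pairs of day 180 libraries also lay apart for mir-377 and mir-485, and none did for mir-411c, mir-539, mir-188 and mir-431.

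**Figure D2:**
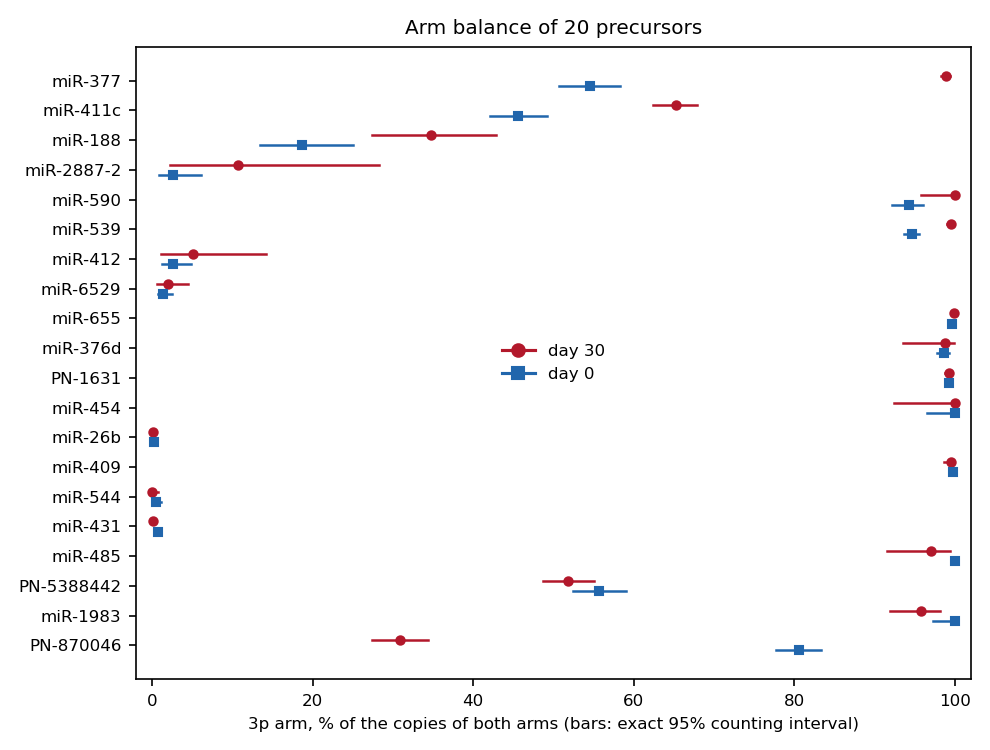
Share of the 3p arm in the copies of both arms (x axis, %) for 20 precursors, with the day 30 library as red circles and the day 0 library as blue squares. Bars are exact 95% counting intervals. The points of mir-377, mir-411c, mir-188 and PN-870046 stand visibly apart, and most other precursors give nearly all copies from 1 arm at both ages.

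The arm balance in the other libraries places these differences among the ages. For mir-377 the 3p share was 63.5% at E90, 54.5% at day 0 and 98.9% at day 30, then 98.2%, 97.1% and 89.1% in the libraries of day 180 and 100% in each library of 7 years. The shares at 7 years rest on only 22, 12 and 75 copies of the 3p arm, with the 5p arm not listed. The day 30 share was thus nearer to those of the older libraries than to those of E90 and day 0. The interval at day 30, 98.3 to 99.4, still lay above that of the third day 180 library, 80.9 to 94.7. For mir-411c the 3p share was 82.8% at E90, 45.6% at day 0 and 65.2% at day 30, but only 0.6%, 0.2% and 0.3% in the libraries of day 180 and 0% in those of 7 years. Here day 30 lay between E90 and day 0 and far from the older libraries, in which miR-411c-5p ran from 265 to 603 RPM and miR-411c-3p from no entry to 1.96 RPM. For mir-539 the share was 71.1% at E90 and between 94.7% and 100% in every library from day 0 on. For mir-188 it was 11.2% at E90, 18.7% at day 0 and 34.8% at day 30. In the libraries of day 180 it was 27.3% (10.7 to 50.2), 61.5% (31.6 to 86.1) and 35% (15.4 to 59.2), on few copies. Neither arm was listed at 7 years.

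**Figure D3:**
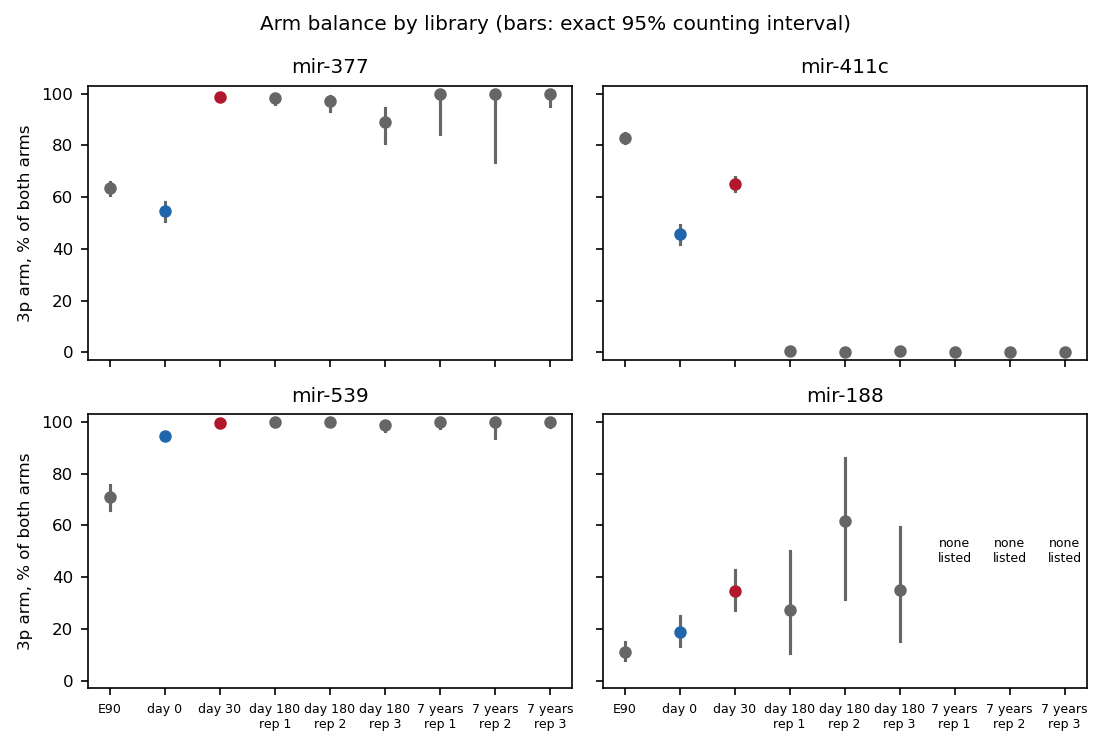
Share of the 3p arm (y axis, %) in each of the 9 libraries for mir-377, mir-411c, mir-539 and mir-188, ordered by age, with day 30 in red, day 0 in blue and the rest in grey. Bars are exact 95% counting intervals. At day 30 mir-377 sits near the day 180 libraries at 98.9%, whereas mir-411c at 65.2% sits far above them.

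Arms of the DLK1-DIO3 families took a larger share of the conserved copies at day 30 although their level per read was lower. The 28 arms of these families in the table summed to 5346 RPM at day 30 and 7750 RPM at day 0, a ratio of 0.690 (0.678 to 0.702), while the sum turns to 1.27 when summed copies serve as library size and to 1.65 when the median arm is set to 1. The other conserved arms summed to 3809 RPM at day 30 and 8998 RPM at day 0, a ratio of 0.423 (0.415 to 0.432), which becomes 0.777 and 1.01 under the same choices. The families' share of all conserved copies was 58.4% at day 30 and 46.3% at day 0. Without miR-431-5p, the leading arm of the families, it was 38.1% at day 30 and 29.8% at day 0, and without miR-26b-5p, the leading arm outside them, it was 89.5% at day 30 and 84.0% at day 0. Among the 34 arms, 15 belong to these families. By count, 9 of the 15 were at least 2-fold lower, 4 lay between and 2 were higher, with a median ratio of 0.458 beside 0.418 for all 34. The families' arms were thus spread over nearly the whole range of ratios rather than lying together.

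Single arms of these families differed widely from each other. The leading one, miR-431-5p, which in mice is known to lower the satellite cell factor Pax7 (precursor of the 5p entry on the plus strand at 7:132097559-132097659), stood at 3006 RPM at day 30 and 3931 RPM at day 0, a ratio of 0.765 (0.746 to 0.783). It made up 32.8% of the conserved copies at day 30 and 23.5% at day 0. The second in level, miR-655-3p, stood at 721 RPM at day 30 and 1550 RPM at day 0, a ratio of 0.465 (0.444 to 0.487). The next at day 0, miR-539-3p, stood at 389 RPM at day 30 and 513 RPM at day 0, a ratio of 0.759 (0.709 to 0.812). At day 30 miR-377-3p, at 402 RPM, lay just above it. Relative to the median arm, miR-431-5p and miR-539-3p lay higher at day 30 by 1.83-fold and 1.81-fold, and miR-655-3p by 1.11-fold, so their direction is that of the scaling.

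Of the conserved arms, those lowest at day 30 relative to day 0 were largely of these families. Of those named next, miR-539-5p, miR-431-3p, miR-376d-3p, miR-485-3p and miR-412-5p reached the minimum of 100 copies through the day 0 library alone. By count the families were lower about as often as all 34 arms, at 60% beside 61.8%. Outside them, miR-2887-2-5p at 0.175 lay in the same range and the entries of PN-868884 lay below it. The minor arms miR-539-5p and miR-431-3p had ratios of 0.0598 (0.0215 to 0.134) and 0.0826 (0.0370 to 0.161). The arm miR-376d-3p stood at 24.2 RPM at day 30 and 221 RPM at day 0, a ratio of 0.109 (0.0865 to 0.137). The arm miR-485-3p stood at 28.2 RPM at day 30 and 245 RPM at day 0, a ratio of 0.115 (0.0926 to 0.142). All 4 stayed below a ratio of 0.5 under each scaling. The arm miR-412-5p followed at 16.1 RPM at day 30 and 81.9 RPM at day 0, a ratio of 0.197 (0.146 to 0.261). In the middle of the range, miR-409-3p stood at 186 RPM at day 30 and 405 RPM at day 0, a ratio of 0.458 (0.418 to 0.502), and miR-544-5p at 152 RPM at day 30 and 256 RPM at day 0, a ratio of 0.593 (0.534 to 0.658).

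A pair of the 34 arms shared each of 3 seeds, and within them the mix of arms could be compared at each age. The seed TCATACA is carried by miR-485-3p and miR-539-3p, both of DLK1-DIO3 families. Of the copies with this seed, miR-485-3p supplied 6.75% (5.52 to 8.17) at day 30 and 32.3% (30.7 to 33.9) at day 0. The seed's arms had 1451 copies at day 30 and 3388 at day 0, in RPM a ratio of 0.551 (0.517 to 0.586). Over the series, miR-485-3p supplied 94.8% of the seed's copies at E90 and 3.81%, 2.72% and 5.11% at day 180, and it was not listed at 7 years. The larger part of this exchange therefore lay between E90 and day 0, where miR-539-3p stood at 48.8 RPM at E90 and 513 RPM at day 0.

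The seed TCATAGA is carried by miR-376d-3p and miR-376b-3p, whose listed sequences share 18 bases, so that reads could be assigned to either and each value alone is uncertain. The arm miR-376d-3p supplied 45.4% (38.1 to 52.9) of the seed's copies at day 30 and 73.3% (70.8 to 75.6) at day 0. Summed, which avoids the question of assignment between them, they stood at 53.2 RPM at day 30 and 301.4 RPM at day 0, a ratio of 0.177 (0.151 to 0.206). At day 180 miR-376d-3p supplied 2.48%, 5.77% and 6% of them. The seed TCAAGTA is that of the miR-26 family and is also carried by the putative new arm PN-24885174-5p, which supplied 0.610% (0.474 to 0.773) of the seed's copies at day 30 and 0.981% (0.879 to 1.09) at day 0. The sequence listed for that arm does not occur in the precursor that the table gives for it, on the minus strand at 13:24885174-24885436 of Sscrofa10.

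The most abundant conserved arm at both ages was miR-26b-5p, of a family that in mouse myoblasts is known to lower the histone methyltransferase Ezh2. It stood at 3184 RPM at day 30 and 7522 RPM at day 0, a ratio of 0.423 (0.414 to 0.433). It made up 34.8% of conserved copies at day 30 and 44.9% at day 0, so that miR-431-5p nearly equalled it at day 30. Its ratio was close to the median of all 34 arms, and with that median set to 1 it became 1.01. Its 3p arm had 16 copies at day 30 and 60 at day 0.

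The X-linked pair mir-660 and mir-188, which in human lies within introns of the chloride transporter gene CLCN5, gave unlike ratios. The arm miR-660-5p (precursor on the plus strand at X:48640809-48640903 of Sscrofa10) stood at 230 RPM at day 30 and 810 RPM at day 0, a ratio of 0.284 (0.262 to 0.306). The interval of miR-188-5p (plus strand, X:48632378-48632485) was given above as 0.672 to 1.13, which lies wholly above that of miR-660-5p. The list's 3 arms summed to 275 RPM at day 30 and 852 RPM at day 0, a ratio of 0.323 (0.301 to 0.347). The list's sum stayed below 1 under both other scalings, at 0.593 and 0.773.

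The arm miR-590-3p (plus strand, 3:11024985-11025078) was among the lowest outside the DLK1-DIO3 families, with 24.7 RPM at day 30 and 123 RPM at day 0, a ratio of 0.200 (0.158 to 0.252). Its 5p arm was not listed at day 30 and had 33 copies at day 0. The arm miR-454-3p (plus strand, 12:37088039-37088181), which shares its seed with the miR-130 and miR-301 families, had 47 copies at day 30 and 107 at day 0, a ratio of 0.565 (0.392 to 0.803). Its relative miR-301b-3p had 45 copies at day 30 and 47 at day 0. That list summed to 26.5 RPM at day 30 and 34.5 RPM at day 0, a ratio of 0.768 (0.587 to 1.001) that turns to 1.41 and 1.84 under the other scalings. The arm miR-6529-5p (plus strand, 13:149441291-149441369) stood at 71.9 RPM at day 30 and 174 RPM at day 0, a ratio of 0.413 (0.356 to 0.476). The arm miR-1983-3p (plus strand, 7:23030083-23030199) was, of the 34 arms, the only conserved one outside the DLK1-DIO3 families whose interval lay above 1, with 52.6 RPM at day 30 and 30.0 RPM at day 0, a ratio of 1.76 (1.40 to 2.21).

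On chromosome 6, mir-2887-2 (minus strand, 6:866649-866705) and mir-5105 (minus strand, 6:870882-870961) lie within a short stretch that also holds other entries of the tables. Its 10 arms summed to 88.9 RPM at day 30 and 127.97 RPM at day 0, a ratio of 0.695 (0.603 to 0.799) that turns to 1.28 and 1.66 under the other scalings. Within it, miR-2887-2-5p stood at 7.19 RPM at day 30 and 41.2 RPM at day 0, a ratio of 0.175 (0.110 to 0.266). The entries for the arms of mir-5105 had ratios of 1.17 (0.919 to 1.49) for 5p and 0.414 (0.278 to 0.604) for 3p, but their listed sequences share 17 bases, so that each value alone is uncertain.

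Other families looked for gave little to compare. The miR-34 and miR-449 families had 12 copies at day 30 and 17 at day 0, and miR-30 was not listed at day 30 and had 3 copies at day 0. The families miR-17 to miR-92, let-7/98, miR-29 and miR-181 had no arm in the tables, which says nothing about their levels in the muscle, since the reads outside the tables were not analysed here.

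Among the putative new arms, named here by the number the table gives as the start of their interval, PN-1631-3p was the most abundant at both ages. It stood at 446 RPM at day 30 and 1331 RPM at day 0, a ratio of 0.335 (0.316 to 0.354). The arm PN-870046-5p stood at 139 RPM at day 30 and 35.1 RPM at day 0, a ratio of 3.95 (3.29 to 4.76), and its 3p partner at 61.8 RPM at day 30 and 146.3 RPM at day 0, a ratio of 0.423 (0.361 to 0.494). As the 5p entry stood for another product at each age, its ratio does not describe 1 arm. The arms of PN-5388442 (plus strand, interval 5:5388442-5388702) both lay above 1, at 1.504 (1.31 to 1.72) for 5p and 1.29 (1.13 to 1.46) for 3p. They stood at 135 and 145.3 RPM at day 30, against 89.7 and 113 RPM at day 0. Its arms thus lay on the same side of 1, unlike those of mir-377, and its 3p share of 51.8% at day 30 and 55.7% at day 0 had overlapping intervals.

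The lowest ratios of all came from the 2 entries of PN-868884, which were not listed at day 30 and stood at 180 RPM (3p, 804 copies) and 30.7 RPM (5p) at day 0. Set against the bound of 3 copies at day 30, they were 208.5-fold and 35.5-fold lower. With counting error added, the least folds were 71.1 and 11.9. Both entries were listed at day 0 alone of the 9 libraries. Their sequences share 16 bases and start 4 bases apart on the same side of the precursor, so they do not count as separate observations. The 5p entry also shares 19 bases with another putative new arm, PN-3335108-5p, which had 14 copies at day 30 and 54 at day 0. Joining entries that share at least 16 bases leaves copies at day 30 and turns the bound for the 3p entry into a ratio of 0.0181 (0.00985 to 0.0305). The arms PN-24885174-5p and PN-32286946-5p (plus strand, interval 14:32286946-32287205) stood lower as well, at 19.6 and 14.7 RPM at day 30, against 74.5 and 50.3 RPM at day 0, with ratios of 0.263 (0.199 to 0.342) and 0.291 (0.211 to 0.396).

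The identity of the most abundant sequence was the same at both ages for 23 of the 32 arms listed at both, and the seed was the same for 30. The sequences ran from 17 to 27 nt, and 29 at day 30 and 31 at day 0 lay between 20 and 24 nt, the usual length of an miRNA. Both exceptions in the seed are printed at the top. The sequence of miR-5105-5p began 24 bases nearer the 5′ end of the precursor at day 30 than at day 0, and that of PN-870046-5p began 55 bases nearer. Their ratios therefore compare different products of 1 interval. A further 5 arms differed at the 3′ end alone, with miR-539-5p and miR-376b-3p 1 base longer at day 30, miR-539-3p and PN-32286946-5p 1 base shorter, and miR-2887-2-5p 6 bases longer. In miR-188-5p and miR-1983-3p the last base was another one at day 30, and the sequence with that base does not occur in the listed precursor.

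Set among all ages, the day 30 library lay above all 3 libraries of day 180 for 28 of the 34 arms, below all of them for 3 and within their range for miR-6529-5p, while the 2 entries of PN-868884 were listed in none of these 4 libraries. The 3 below were miR-5105-3p, miR-411c-5p and PN-5388442-3p. Copies of both tables were 1.04% of the reads at day 30 and 0.257% to 0.322% at day 180, so most levels per read differ with that total. With summed copies as library size, day 30 lay above all 3 libraries for 20 arms, below them for 9 and within their range for 3. Per read, the highest level of the series fell at E90 for 16 arms, at day 0 for 10, at day 30 for 5 and in a later library for 3. Copies of both tables were 2.70% of the reads at E90 and 1.91% at day 0, so this count differs with that total as well. It was not made under another scaling. For miR-26b-5p the levels were 6477 RPM at E90, 7522 on day 0 and 3184 on day 30, with 802, 640 and 704 in the libraries of day 180, and 618, 411.45 and 597 in those of 7 years. For miR-655-3p they were 1994 RPM at E90, 1550 on day 0 and 721 on day 30, with 16.40, 16.29 and 15.96 in the libraries of day 180, and 9.46, 7.79 and 8.63 in those of 7 years. Both stood lower at day 30 than at day 0 and lower again at day 180, but the step from day 30 to day 180 was far wider for miR-655-3p. As a share of conserved copies, miR-26b-5p was at 34.8% at day 30 and 31.68% to 31.98% at day 180. For miR-377-3p they were 181.3 RPM at E90, 82.6 on day 0 and 402 on day 30, with 26.7, 16.2 and 9.09 in the libraries of day 180, and 3.53, 3.22 and 7.99 in those of 7 years, so that its day 30 value was the highest of the series. These levels share the day 0 and day 30 libraries with the ratios above and are given as values alone.

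**Figure D4:**
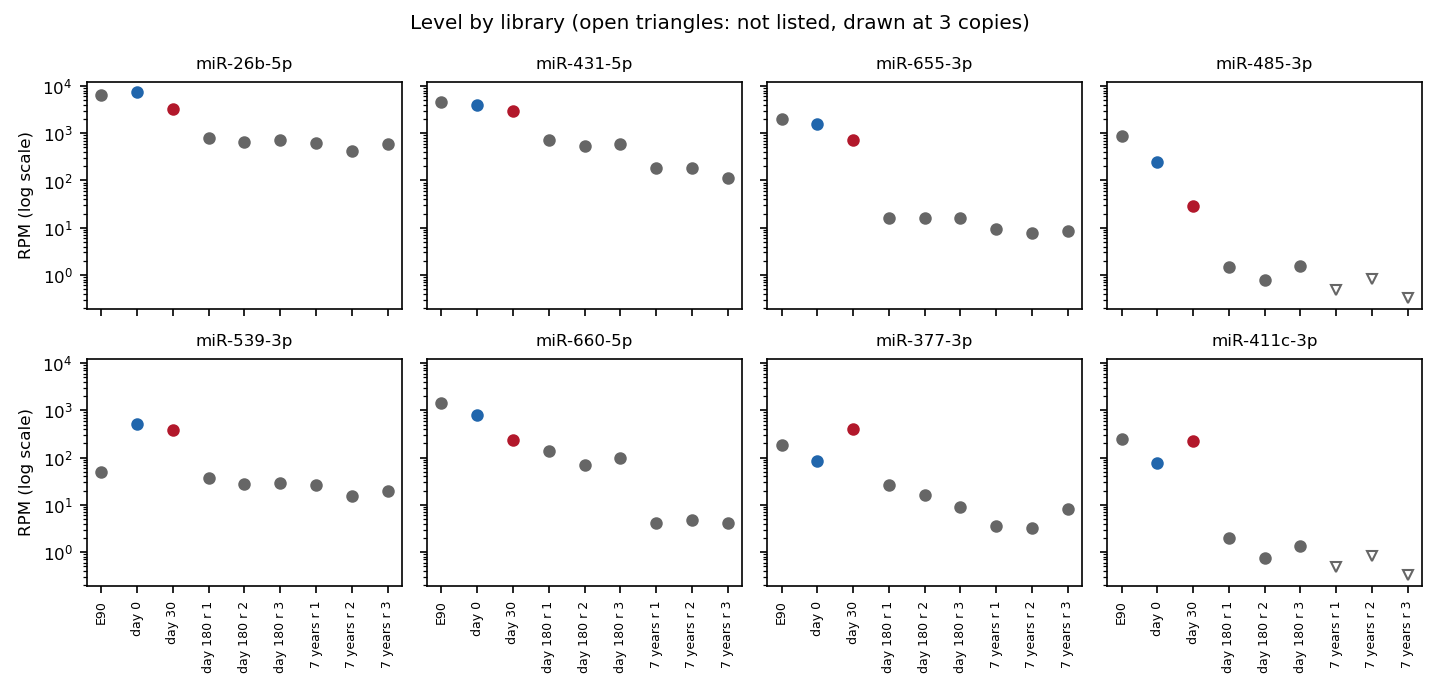
Level of 8 conserved arms in each of the 9 libraries, in RPM on a log axis, ordered by age, with day 30 in red, day 0 in blue and the rest in grey. Open triangles mark libraries without an entry, drawn at 3 copies. In 6 panels the red point lies below the blue one, and in those of miR-377-3p and miR-411c-3p it lies above.

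The only spread between libraries of 1 age comes from day 180 and 7 years. At day 180, 15 of the 34 arms had at least 100 copies in all 3 libraries, and the widest fold between any pair of these libraries had a median of 1.32 over arms and a range of 1.03 to 2.18. For 9 of these 15 arms the fold between day 30 and day 0 was larger than that arm's own widest fold, and for 6 it was not. Which arms these were depended on the scaling. With summed copies as library size the fold was larger for 9 arms, and with the median arm set to 1 for 7. This last scaling took the median of all 34 arms for day 30 against day 0. For the pairs of day 180 libraries it took the median of the 15 arms. The folds compared under it are thus not set on the same arms, and its count and close calls are not settled. Of the 15 arms, miR-590-3p and miR-5105-3p were among the 34 through their copies at day 0 alone, with 86 and 37 copies at day 30. As computed, the fold was larger under all 3 scalings for miR-590-3p and PN-5388442-5p, with PN-5388442-5p higher and miR-590-3p lower at day 30 each time. For miR-26b-5p and miR-660-5p it was larger per read and with summed copies. With the median arm set to 1 both fell just short, miR-660-5p at 1.47-fold against 1.53-fold, which the unlike medians leave undecided. The fold was larger under none for miR-544-5p. For miR-26b-5p it was 2.36-fold against 1.25-fold per read, but 1.01-fold against 1.07-fold with the median arm set to 1. For miR-431-5p it was 1.31-fold against 1.32-fold per read, but 1.40-fold against 1.05-fold with summed copies. At 7 years only 6 arms were deep enough, with a median widest fold of 1.83, and per read only miR-26b-5p of them differed more between day 30 and day 0. The arms with the most extreme ratios, such as miR-377-5p and miR-376d-3p, were too low at day 180 and 7 years for such a comparison.

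The minimum of 100 copies left arms of like depth just outside. The nearest outside were miR-208a-3p, with 27 copies at day 30 and 97 at day 0, PN-19684419-3p with 94 at day 30 and no entry at day 0, PN-40675019-5p with 49 at day 30 and 88 at day 0, and PN-7563663-3p with 11 at day 30 and 72 at day 0. The nearest inside were miR-454-3p, with 47 at day 30 and 107 at day 0, miR-5105-3p with 37 at day 30 and 115 at day 0, miR-539-5p with 1.73 RPM at day 30 and 28.9 RPM at day 0, and PN-868884-5p with no entry at day 30 and 30.7 RPM at day 0. The 34 arms held 97.9% of the conserved copies at day 30 and 98.4% at day 0, and 75.5% of the putative new copies at day 30 and 85.5% at day 0.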

How the data were processed

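Per the labels, small RNA of 10 to 40 nt was cut from a gel, and the instrument was an Illumina Genome Analyzer II. The deposited counts are whole-number copies of each arm per library, not normalised, and per the file headers the precursors lie on Sscrofa10. What program aligned and called the reads was not given in the sources used here. Some conserved and putative new arms name no chromosome, and no position is printed for them. Putative new entries with identical sequence and values were merged. Copies were divided by the high-quality reads of the header. An empty cell counted as 0 in sums and shares and as a bound of 3 copies in a ratio. Each ratio of day 30 over day 0 carries an exact 95% interval (Clopper-Pearson on the share of the copies falling in the day 30 library), as do arm and seed shares. The ratios and their intervals, but not the shares, were checked on simulated counts that held counting error alone. Reads are not independent molecules, so intervals cover counting error only. No test was made, since each age has 1 library. A call is a point estimate or bound at least 2-fold from 1. Arms named are the most abundant, those with the largest and smallest ratios, partners from the same precursor and families fixed by number: DLK1-DIO3, X-linked, miR-26, miR-301/130/454, miR-590, miR-30, miR-17 to miR-92, let-7/98, miR-29, miR-34 with miR-449, miR-181, and markers of muscle, blood, epithelium, nerve, endothelium, liver, cartilage and smooth muscle or fibroblasts. Arms outside that rule, such as those at the threshold, were chosen after their values were seen. The arms and lists were chosen with earlier results of these data known. Sequences are those the deposited tables list. Python 3.11.15, numpy 2.4.6, pandas 2.3.3, scipy 1.17.1 and matplotlib 3.10.9 were used.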

Additional observations from a re-analysis of the deposited data

How the results depend on the processing

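Scaling moved most values. With summed copies as library size, the ratio of day 30 over day 0 was 1.004 for summed conserved copies, 0.974 for putative new and 1.27 for DLK1-DIO3 families, the median was 0.777 for conserved and 0.615 for putative new arms, and 8 arms were higher and 11 lower. With the median arm set to 1, the conserved median was 1.01 and the putative new median 0.801, and 9 arms were at least 2-fold higher and 10 lower. Under it the ratios of miR-655-3p (1.11), miR-26b-5p (1.01), miR-409-3p (1.10) and PN-870046-3p (1.01), by that scaling's construction, passed from below 1 to just above it and within 2-fold, and the intervals of the last 3 held 1. A minimum of 50 copies gave medians of 0.441 for conserved and 0.716 for putative new arms, with 7 of 51 arms higher, 28 lower and 36 with the same most abundant sequence at both ages. A minimum of 300 copies gave a putative new median of 0.423, and joining overlapping entries 0.413. Empty cells set to 2 copies gave 0.573 for summed putative new copies. A threshold of 3-fold left 13 arms lower. The conserved sum was 0.423 without DLK1-DIO3 families and 0.647 without the most abundant arm, and that of the families was 0.613 without theirs. The cause of these moves was not tested beyond what each alternative builds in. The scalings of single arms, those of the comparisons with day 180 libraries and the joining of a single entry were added after seeing the data. No paired analysis was possible because each age compared here has 1 library. Depth limits arms with few copies, such as miR-539-5p with 6 at day 30.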

Other observations

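Several putative new arms under the minimum of 100 copies had an entry in only 1 of the libraries of day 30 and day 0, and were chosen here for that. PN-19684419-3p (minus strand, interval 2:19684419-19684676 of Sscrofa10) had 94 copies at day 30, no entry at day 0 and 84 copies at E90. PN-679-3p, placed on the mitochondrial genome, had 69 copies at day 30, no entry at day 0 and 3 copies in 1 library of day 180. PN-65076824-3p (plus strand, interval 9:65076824-65077081) had 55 copies at day 30 and no entry in any other library. PN-80161039-3p (minus strand, interval 9:80161039-80161301) had no entry at day 30, 39 copies at day 0 and none in the other libraries.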
